A study of Danio rerio with 25 samples.

Results

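Small RNA from the skin of old male zebrafish was compared with that of young ones. The old pool held 10 libraries, 5 at 36 months and 5 at 42 months of age, and the young pool held 10 libraries, 5 at 6 months and 5 at 12 months. These 20 libraries were taken from 25 by their age labels alone, and the 5 libraries at 24 months were left out of both pools. All 346 microRNA hairpins of the count table were examined. The fish at 36 months were labelled AB JxTü Tg(pu.1:GFP), those at 42 months AB JxTü Tg(wt1a:GFP), those at 6 months AB JxTü without a transgene, and those at 12 months AB JxTü Tg(flk:mCherry). The pu.1 promoter drives the reporter in myeloid blood cells, the wt1a promoter in kidney cells among others, and the flk promoter in endothelium. Each age thus carried its own strain label, and age and transgenic line cannot be told apart within these libraries. The labels do not say whether the libraries came from separate fish, so that p-values measure the spread between libraries.

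MicroRNAs are short RNAs cut from hairpin precursors. Loaded into a silencing complex, they pair with messenger RNAs and reduce their translation or stability. In skin the epithelial miR-200, miR-203 and miR-205 families are known from keratinocytes, while miR-21, miR-146 and miR-155 are known to be induced in inflamed tissue. Several microRNAs are encoded at more than 1 place in the genome, and the table then lists each place as a hairpin of its own (miR-21-1 and miR-21-2). Of the 217 names left after such copies were summed, 51 had at least 2 copies, which together made up 180 hairpins. Copy totals were within 1.1 times of each other in 22 of the 29 such names whose summed count averaged 1000 or more. Not given in the sources used here was how reads that match more than 1 copy were counted. Results are therefore given by name with copies summed, and by hairpin where stated. Levels are CPM, counts scaled to a common library total after trimmed-mean normalization (TMM).

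Old skin had more of the inflammation-linked miR-146a, miR-146b and miR-21 and of the p53-induced miR-34a. It also had more of the related miR-221 and miR-222b, and of 5 of the 8 tested names of the miR-23/24/27 clusters. It had less of miR-1388, of the cartilage-linked miR-455, of the muscle microRNA miR-206 and of all 3 tested members of the family of miR-103 and miR-107. Of the 217 names, 9 had no count, 21 were too low to be tested and 187 were tested with edgeR's quasi-likelihood test. At a Benjamini-Hochberg adjusted p under 0.05, 33 of the 187 names (17.6%) passed. Of these, 20 (10.7%) were higher and 13 (6.95%) lower in old skin, and 60 names had an unadjusted p under 0.05. In 3 of the 187 names (1.6%), miR-146a, miR-23a and miR-21, the 10 old and 10 young values did not overlap. The median log2 change over all tested names was 0.02, and 10 of the 33 differed by more than 2-fold, 7 of them higher and 3 lower. Upper-quartile scaling moved the median of all names to -0.12 and gave 14 higher and 38 lower names, and scaling by library size alone moved it to -0.14 and gave 14 and 37. The 6 names that lost their calls under both scalings were all among those that were higher (miR-10c, miR-24, miR-27b, miR-31, miR-210 and miR-221). With age as a random block in limma-voom, 17 of the 33 names passed.

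**Figure D1:**
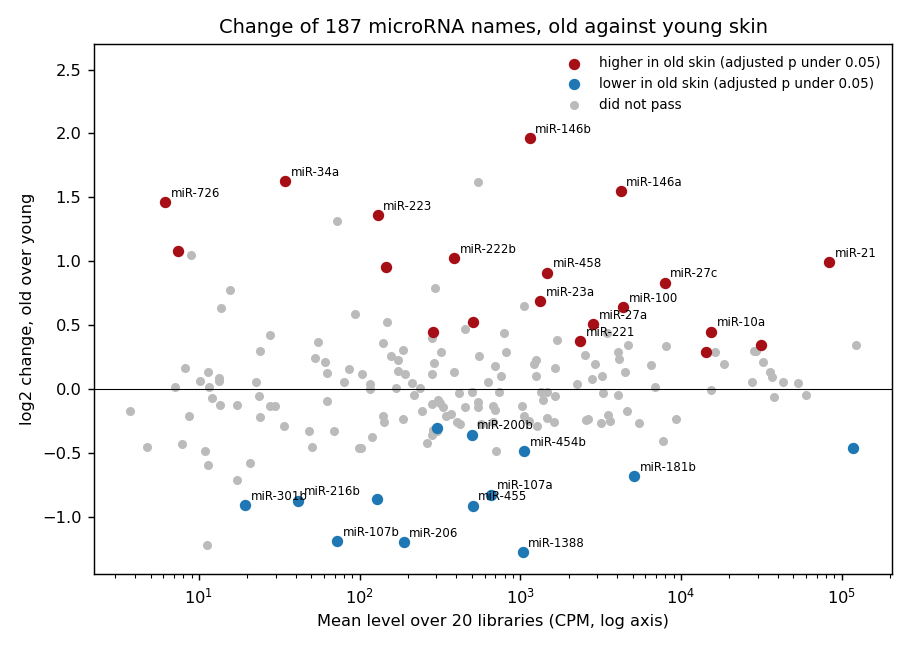
Log2 change of old over young skin (vertical axis) against the mean level over the 20 libraries (CPM, log axis) for all tested microRNA names. Red points (20) were higher and blue points (13) lower in old skin at an adjusted p under 0.05, grey points did not pass, and the called names span the whole range of levels.

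At the level of single hairpins, 38 of the 346 had no count, 53 were too low and 255 were tested. Of these 58 (22.7%) passed, 36 (14.1%) higher and 22 (8.63%) lower in old skin, with 88 at an unadjusted p under 0.05. Upper-quartile scaling gave 18 higher and 48 lower hairpins, and library size alone 19 and 41. The 58 hairpins carried 43 names, and these included all 33 names that passed with copies summed. The other 10 names held a called hairpin but did not pass as a name. Among them were the Hox-encoded miR-10b, for which 1 of 2 copies was called (log2 change 0.35), and the epithelial miR-200c, whose single hairpin was called at -0.31 while the name stood at -0.29 (adjusted p = 0.0588).

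The called names made up a sizeable part of the libraries. Summed, the 20 names that were higher took 159020 to 362752 CPM in old libraries (median 193538), against 118677 to 147261 CPM in young ones (median 126095). The 13 lower names summed to 83426 to 133140 CPM in old libraries (median 107091), against 98466 to 205091 CPM in young ones (median 146854). MiR-21 made up 41.9% to 68.6% of the higher sum in old and 36.1% to 51.5% in young libraries, and miR-181a at least 91.7% of the lower sum in old and 91.2% in young libraries. Since the names were chosen by this same comparison, the sums are a description only.

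Old libraries held 683884 to 4425709 reads on hairpins (median 2803240), against 2199520 to 5206505 in young libraries (median 3722990). The difference of the means did not pass after adjustment over 4 library measures (permutation p = 0.0477, adjusted p = 0.191). An average of 278.6 ± 9.70 hairpins was detected in old libraries and 278.2 ± 2.53 in young libraries (SD, n = 10 each). The 10 most abundant names took 62.7% ± 2.62 of the reads in old libraries and 62.9% ± 2.65 in young libraries. Neither measure passed (permutation test, adjusted p = 0.928 for both), nor did the Shannon entropy of the shares (4.95 bits in old and 5.00 in young libraries, adjusted p = 0.717). The 5 libraries of 42 months all stood apart on the second coordinate of a multidimensional scaling, between 0.28 and 0.54, while the other 15 libraries reached at most 0.093. The epidermal microRNAs miR-203b and miR-205, which mark skin, were abundant in every library, with at least 17577 and 33833 CPM in old and 16703 and 35557 CPM in young libraries. Without the 3 libraries farthest from the median of their pool (42 months replicates 1, 2 and 5), 36 names passed, 27 of them among the 33. Without the 3 libraries of fewest reads (42 months replicates 2, 4 and 5), 29 passed, 28 of them among the 33.

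**Figure D2:**
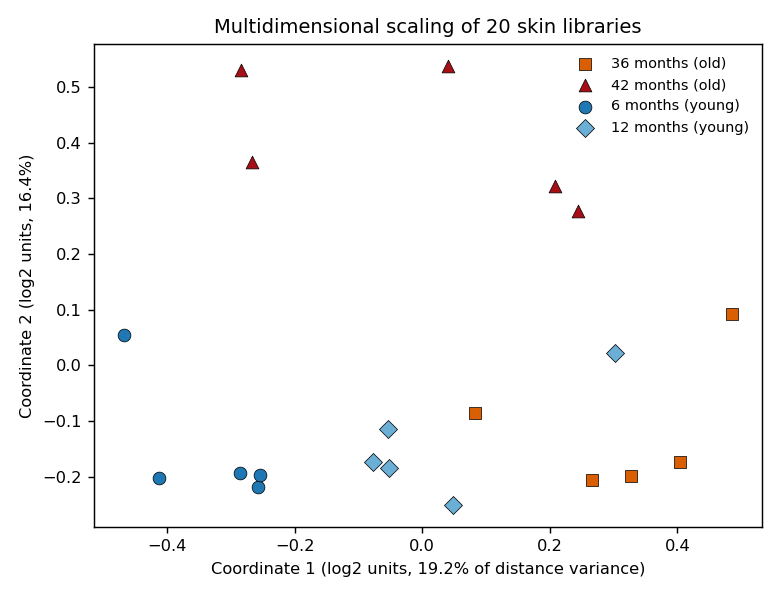
Multidimensional scaling of the 20 skin libraries on log2 CPM (coordinates 1 and 2, log2 units), with 36 and 42 months as old and 6 and 12 months as young. The 5 libraries of 42 months lie between 0.28 and 0.54 on coordinate 2, above the other 15, while the 6-month libraries and 42 months replicates 1 and 2 lie below -0.25 on coordinate 1.

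Inflammation-linked microRNAs were higher in old skin, and 3 of the 4 tested names of that list passed, against 10.7% higher over all names. The lists were chosen with earlier results of these data known, so the share called in a list is a description only. With age as a random block, or without the 6-month group, 2 of the 4 names passed, since miR-146b was lost. MiR-146a, which dampens Toll-like receptor signalling in mammals, had the smallest p of all names. It had 3122 to 10811 CPM in old libraries (median 5259), against 1531 to 2664 CPM in young ones (median 2152). Every old library lay above every young one, and the log2 change was 1.55 ± 0.19 (SE, adjusted p = 1.36e-05), a 2.92-fold difference. In bulk skin, a change in the number of cells that make a microRNA and a change in its amount per cell cannot be told apart.

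MiR-21, which is induced in wounds and inflamed tissue of mammals, had the largest difference in CPM of any name, 55155 CPM more in old skin. It had 66574 to 248795 CPM in old libraries (median 91895), against 49603 to 62362 CPM in young ones (median 55339). The pools again did not overlap, and the change was 0.99 ± 0.19 (adjusted p = 7.05e-04). As a share, miR-21 took 10.4% ± 4.53 of the reads in old libraries and 5.92% ± 0.881 in young libraries (SD, n = 10 each). Within the old pool, the 42-month libraries spanned 66574 to 248795 CPM and the 36-month libraries 75657 to 100082 CPM.

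MiR-146b, a paralog of miR-146a, had 591 to 9199 CPM in old libraries (median 998), against 303 to 793 CPM in young ones (median 420). Its log2 change was the largest of all called names, 1.96 ± 0.45 (adjusted p = 0.00252), and 8 of 10 old libraries lay above the highest young one. Without 42 months replicate 1, which held 9199 CPM, the change was 1.101 (adjusted p = 6.17e-04). MiR-155, a microRNA of activated leukocytes, did not pass, with 41.3 to 252 CPM in old and 40.1 to 105 CPM in young libraries (change 0.58 ± 0.27, adjusted p = 0.134). Summed, the 4 names took 70327 to 269057 CPM in old and 51586 to 65172 CPM in young libraries. Most of this sum was miR-21, with 66574 to 248790 CPM in old and 49603 to 62362 CPM in young libraries. The median change of the 4 names was 1.27, against 0.02 over all names tested.

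Among the 4 leukocyte names 1 was higher in old skin, against 10.7% higher over all names. It was miR-223, a microRNA of neutrophils and macrophages, and the other 3 did not pass. Upper-quartile scaling, library size alone and the fit without the 42-month group each called 1 of these 3 lower. MiR-223 had 74.6 to 601 CPM in old libraries (median 117), against 46.2 to 119 CPM in young ones (median 66.8). Only 4 old libraries lay above the highest young one, and the change was 1.36 ± 0.33 (adjusted p = 0.00469). The pan-leukocyte miR-142a had 1713 to 2950 CPM in old and 1585 to 2790 CPM in young libraries (change 0.04 ± 0.12), and the lymphocyte miR-150 stood at -0.26 ± 0.15 (adjusted p = 0.244). As a whole the leukocyte list summed to 3012 to 4259 CPM in old and 2710 to 4141 CPM in young libraries. The part of leukocytes in the level of the inflammation-linked names was not tested. The call of miR-223 was lost with age as a random block, without the 6-month group and without the 42-month group, whose libraries held 100.02 to 601 CPM, while those of 36 months held 74.6 to 119 CPM.

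**Figure D3:**
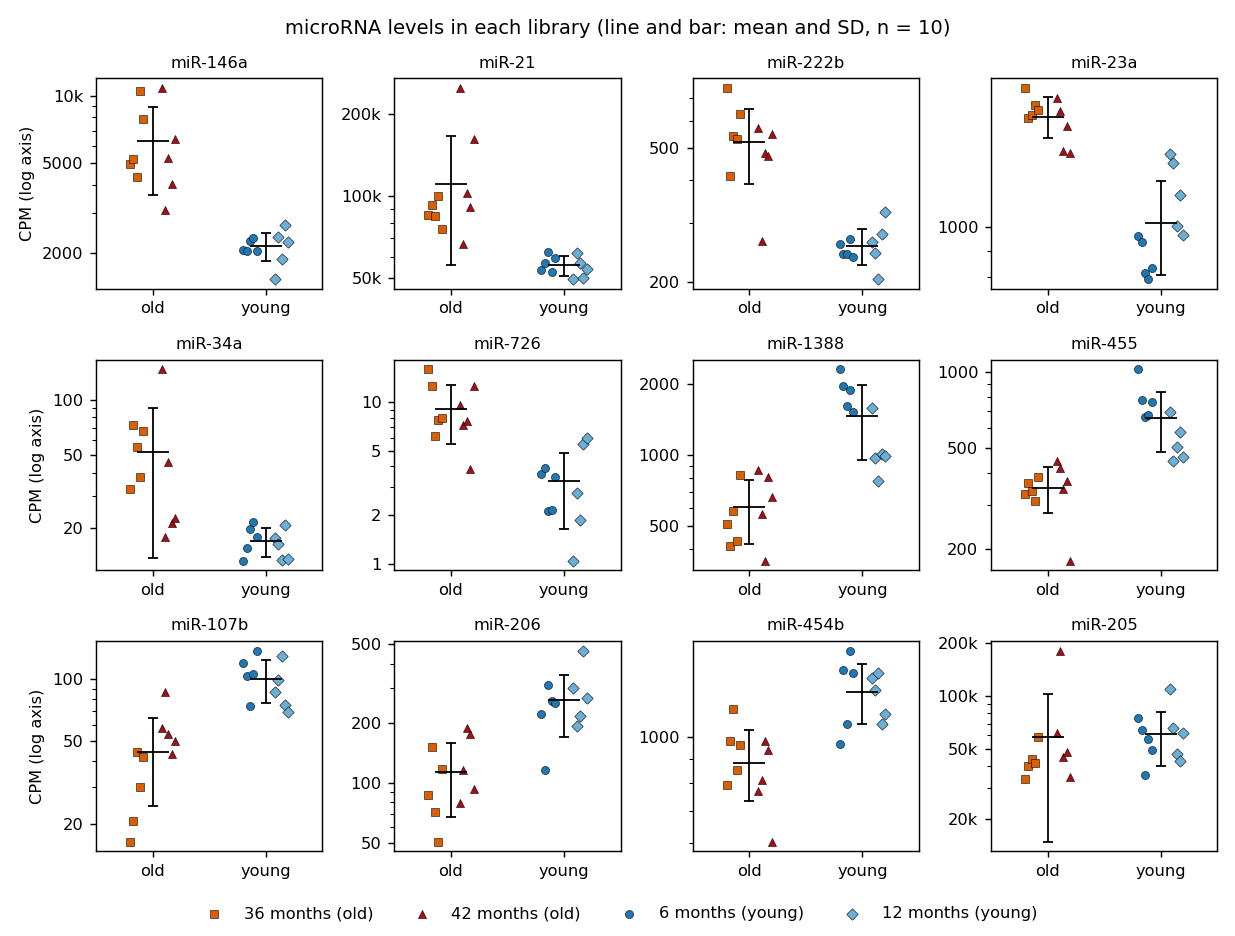
Level of 12 microRNAs in each library (CPM, log axis), old pool left (36 months as squares, 42 months as triangles) and young pool right (6 months as circles, 12 months as diamonds), with mean and SD over 10 libraries. The pools do not overlap for miR-146a, miR-21 and miR-23a, overlap through 1 to 4 old libraries for the other 8 called names, and overlap widely for miR-205, which did not pass.

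MiR-34a, which p53 induces in mammals, was scarce and was the 1 tested name of its family. It had 17.95 to 146 CPM in old libraries (median 42.0), against 13.3 to 21.6 CPM in young ones (median 17.1). In 8 old libraries the level was above the highest young one, and the change was 1.63 ± 0.30 (adjusted p = 7.05e-04). MiR-222b, of a family known to repress the cell-cycle inhibitor p27 in human cells, had 266 to 749.5 CPM in old libraries (median 535), against 204 to 323 CPM in young ones (median 253). Only 1 old library, of 42 months, fell among the young ones, and the change was 1.02 ± 0.14 (adjusted p = 1.64e-05). Its relatives were more abundant and moved less. MiR-221 averaged 2650 ± 511 CPM in old and 2049 ± 266 CPM in young libraries (change 0.37 ± 0.11, adjusted p = 0.0202), and miR-222a did not pass (0.34 ± 0.12, adjusted p = 0.0522). The call of miR-221 was lost under upper-quartile scaling, library size alone, with age as a random block and without the 6-month group.

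The miR-23, miR-24 and miR-27 names are made from shared clusters, and 5 of the 8 tested names were higher in old skin and none lower, against 10.7% higher over all names. It was 3 of 8 under upper-quartile scaling, under library size alone and with age as a random block, and only miR-23a without the 6-month group. MiR-23a had 1392 to 1854 CPM in old libraries (median 1660), against 793 to 1383 CPM in young ones (median 962). Its lowest old library lay just above its highest young one, and the change was 0.68 ± 0.10 (adjusted p = 1.02e-04). MiR-27c had 6825 to 13964 CPM in old libraries (median 9904), against 3142 to 8597 CPM in young ones (median 5474), a change of 0.83 ± 0.16 (adjusted p = 7.05e-04). The level exceeded that of every young library in 8 old ones. MiR-27a averaged 3334 ± 403 CPM in old and 2350 ± 402 CPM in young libraries (change 0.50 ± 0.10). For miR-24 and miR-27b the changes were smaller, 0.45 ± 0.14 and 0.28 ± 0.10 (adjusted p = 0.0304 and 0.0472), and both calls were lost under upper-quartile scaling and library size alone. Both were lost as well with age as a random block and without the 6-month or 36-month group. For miR-27b the same held without the 42-month group, without a filter on low counts and with robust estimation. MiR-24 was also lost without any 1 of 6 libraries and miR-27b without any 1 of 11. MiR-23b, miR-27d and miR-27e did not pass, with changes of -0.03, -0.14 and 0.20.

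Hairpins that lie close together can come from 1 primary transcript, so changes were also read along the genome. In the RefSeq annotation of the GRCz12tu assembly, 319 of the 346 hairpins were found by name, and 46 groups had neighbours within 10 kb. Of the 42 groups with at least 2 tested hairpins, 28 had changes of a single sign. A called hairpin was present in 16 groups, of which 12 had changes of a single sign and 0 held calls in both directions. In the group of miR-23a-2, miR-23a-4, miR-27c-1 and miR-24-2 all 4 hairpins were higher, by 0.71, 0.68, 0.82 and 0.46. The group of miR-23b, miR-27d and miR-24-1 was split, with only miR-24-1 called (0.38) and the other changes at -0.03 and -0.15. Copies with similar counts may share reads, so that neighbouring copies of miR-23a are not independent measurements.

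Of the microRNAs transcribed with let-7, miR-100 was higher in old skin, with 4282 to 8299 CPM in old libraries (median 5078) and 2689 to 4491 CPM in young ones (median 3149). As many as 9 old libraries lay above every young one, and the change was 0.64 ± 0.12 (adjusted p = 7.24e-04). Without the 6-month group miR-100 was not called (adjusted p = 0.0688). The other 4 tested partners, of the miR-99 and miR-125 families, did not pass, although their changes were positive (0.16 to 0.65). None of the 10 tested let-7 names passed under TMM, and let-7a averaged 54042 ± 6019 CPM in old and 52392 ± 6572 CPM in young libraries. Upper-quartile scaling and library size alone each called 5 let-7 names lower, as did the fit without the 42-month group. With the 4 ages as groups, let-7c, let-7e and let-7g were called higher at 42 than at 36 months, by 0.81, 0.51 and 0.46. No call between these 2 ages held without 36 months replicate 4 or without 42 months replicate 1. Of the 8 tested names encoded in Hox clusters, 2 were higher and none lower, against 10.7% higher over all names. They were miR-10a and miR-10c, with changes of 0.45 ± 0.12 and 0.35 ± 0.11 (adjusted p = 0.0116 and 0.0304). The most abundant name of all, miR-10b, had 103019 to 177953 CPM in old libraries (median 137627), against 78578 to 153535 CPM in young ones (median 99999). Its change was 0.34 ± 0.13 and did not pass (adjusted p = 0.0716), and all 10 old libraries lay above the young median. Neither miR-10a nor miR-10c was called with age as a random block, without the 6-month group or without the 42-month group. MiR-10c was also not called under upper-quartile scaling, library size alone or without any 1 of 8 libraries. The same held without the 12-month or 36-month group and without the 3 libraries farthest from their pool. The median of the Hox list was -0.07 and -0.09 under upper-quartile scaling and library size alone, against 0.07 under TMM.

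MiR-31, a microRNA of keratinocytes, had 115 to 348 CPM in old libraries (median 173), against 35.5 to 200.4 CPM in young ones (median 75.3). The change was 0.95 ± 0.31 (adjusted p = 0.0377). The young pool was split, since the 6-month libraries had 35.5 to 54.1 CPM and the 12-month libraries 96.5 to 200.4 CPM. The call was lost without any 1 of 8 libraries and without the 6-month group (change 0.34, adjusted p = 0.462). It was also lost under upper-quartile scaling, library size alone, with age as a random block and without the 36-month or 42-month group. The same held without the 3 libraries farthest from their pool and without the 3 of fewest reads. The hypoxia-induced miR-210 was higher by 0.53 ± 0.16 (adjusted p = 0.0302), a call lost under upper-quartile scaling, library size alone, with age as a random block and without the 6-month or 42-month group. It was also lost without 6 months replicate 5 or 12 months replicate 2 (adjusted p = 0.0564 and 0.0502), and the highest adjusted p over these alternatives was 0.233.

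Among the higher names without a well-known role were miR-458, miR-726 and miR-7145. MiR-458 had 1187 to 2534 CPM in old libraries (median 1911), against 632 to 1859 CPM in young ones (median 938), a change of 0.91 ± 0.19 (adjusted p = 0.00108). All young libraries were exceeded by 6 old ones. Without the 6-month group miR-458 was not called (adjusted p = 0.0980). MiR-726 was near the lower end of detection, with 3.87 to 15.98 CPM in old and 1.04 to 5.99 CPM in young libraries, which rested on 241 reads in the old and 139 in the young pool. Its change was 1.46 ± 0.28 (adjusted p = 7.05e-04), and 9 old libraries lay above every young one. MiR-7145 had 242 reads in the old and 177 in the young pool (change 1.08 ± 0.34, adjusted p = 0.0302), and its call was lost without 12 months replicate 5 (adjusted p = 0.0507). The call of miR-7145 was also lost with age as a random block and without the 12-month or 42-month group. The same held without the 3 libraries farthest from their pool and without the 3 of fewest reads.

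The deepest fall in old skin among the called names was that of miR-1388. It had 358 to 867 CPM in old libraries (median 572), against 774 to 2305 CPM in young ones (median 1554). Below the lowest young library lay 7 old ones, and none reached the young median, and the change was -1.28 ± 0.21 (adjusted p = 1.76e-04), that is 0.412 times the young level. MiR-455, which lies in a collagen gene in mammals and is known from cartilage, had 181 to 447 CPM in old libraries (median 357), against 445 to 1025 CPM in young ones (median 671). Only 1 old library overlapped with the young ones, and the change was -0.92 ± 0.16 (adjusted p = 2.99e-04). The other cartilage microRNA, miR-140, did not pass, with 522 ± 148 CPM in old and 561 ± 242 CPM in young libraries.

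The family of miR-103 and miR-107 is encoded in genes for pantothenate kinases in vertebrates. All 3 of its tested names were lower in old skin, against 6.95% lower over all names. MiR-107a had 255 to 739.6 CPM in old libraries (median 475), against 603 to 1044 CPM in young ones (median 854), a change of -0.83 ± 0.18 (adjusted p = 0.00185). MiR-107b had 16.3 to 86.2 CPM in old libraries (median 43.8), against 69.5 to 137 CPM in young ones (median 101), a change of -1.19 ± 0.24 (adjusted p = 8.04e-04). Below all young libraries lay 8 old ones for miR-107a and 9 for miR-107b. MiR-103 moved less, with 272 ± 32.6 CPM in old and 335 ± 46.1 CPM in young libraries (change -0.30 ± 0.10, adjusted p = 0.0322), and lost its call without any 1 of 10 libraries. With age as a random block 2 of the 3 names passed, since miR-103 was lost. Without the 6-month or the 36-month group only miR-107b passed.

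The miR-181 family, known for its part in lymphocyte development in mice, was among the most abundant of the skin libraries. MiR-181a had 76488 to 124012 CPM in old libraries (median 99958), against 90128 to 189856 CPM in young ones (median 135215). Its share was 9.30% ± 1.29 in old and 14.1% ± 2.28 in young libraries, and its level fell by 37216 CPM, the largest drop of any name. The log2 change was -0.46 ± 0.14 (adjusted p = 0.0259), with 4 old libraries below all young ones. The call was lost without 6 months replicate 1 or 2 or 42 months replicate 4 (adjusted p = 0.0507, 0.0502 and 0.0709). MiR-181b averaged 3931 ± 871 CPM in old and 6308 ± 2062 CPM in young libraries (change -0.68 ± 0.17, adjusted p = 0.00732), and miR-181c did not pass (change -0.12). Both miR-181a and miR-181b lost their calls with age as a random block and without the 6-month or 36-month group, and miR-181a also without the 42-month group or the 3 libraries of fewest reads.

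In the family of miR-130, miR-301 and miR-454, whose members share a seed, 2 of 8 tested names were lower and none higher, against 6.95% lower over all names. Upper-quartile scaling and library size alone called 4 of them lower, and without the 6-month group 1 was called. MiR-454b had 604 to 1139 CPM in old libraries (median 895), against 966 to 1510 CPM in young ones (median 1286), a change of -0.49 ± 0.11 (adjusted p = 0.00186). MiR-301b, of the same cluster, was scarce, at 3.59 to 25.2 CPM in old and 17.2 to 32.5 CPM in young libraries (change -0.91 ± 0.20, adjusted p = 0.00186). Its call was lost without the 6-month or 36-month group. For miR-454b 7 old libraries and for miR-301b 9 lay below all young ones. Their neighbours within 10 kb did not pass, miR-130b with a hairpin change of -0.28 and miR-130c-2 with 0.12.

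Muscle microRNAs were lower in old skin in 2 of 6 tested names, against 6.95% lower over all names. With age as a random block, or without any 1 of the 4 ages, only miR-206 passed. MiR-206, of skeletal muscle, had 50.6 to 190.0 CPM in old libraries (median 105), against 117 to 465 CPM in young ones (median 256). Among the old libraries 6 lay below all young ones, and the change was -1.20 ± 0.24 (adjusted p = 8.04e-04). MiR-1, of skeletal and heart muscle, averaged 90.4 ± 44.0 CPM in old and 165 ± 77.7 CPM in young libraries (change -0.86 ± 0.28, adjusted p = 0.0372), and was not called without any 1 of 11 libraries. The far more abundant miR-133a did not pass, with 2952 to 12609 CPM in old and 4219 to 14614 CPM in young libraries (change -0.41 ± 0.24, adjusted p = 0.219). Summed, the muscle list took 3501 to 13701 CPM in old (median 7344) and 4875 to 17374 CPM in young libraries (median 9569), so that the pools overlapped widely. The part of muscle in the skin samples in these values was not tested.

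Epithelial microRNAs were lower in 1 of 9 tested names, a share near the 6.95% over all names. MiR-200b, which represses the ZEB transcription factors, had 323 to 545 CPM in old libraries (median 438), against 456 to 703 CPM in young ones (median 558). Among the old libraries 7 lay below all young ones, and the change was -0.36 ± 0.10 (adjusted p = 0.0170). The call was lost with age as a random block, without the 6-month or 36-month group and without the 3 libraries farthest from their pool. Its neighbours miR-200a and miR-429a did not pass as names, with changes of -0.25 each, and neither did miR-203a (0.19), miR-203b (0.05) and miR-205 (-0.04 ± 0.28). MiR-205 varied widely, with 33833 to 181983 CPM in old libraries (median 44626) and 35557 to 109406 CPM in young ones (median 59668). Upper-quartile scaling called 5 epithelial names lower and library size alone 4. The pancreatic microRNA miR-216b was lower as well, at 10.3 to 47.8 CPM in old and 32.3 to 104 CPM in young libraries (change -0.88 ± 0.24, adjusted p = 0.0131). Its call was lost with age as a random block and without the 6-month or 42-month group. It was also lost without the 3 libraries farthest from their pool and without the 3 of fewest reads.

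Many abundant names did not pass. Besides let-7a, miR-10b and miR-205, they included miR-462 of the antiviral response of fish (change 0.06 ± 0.20), miR-22a (-0.06 ± 0.12), the broadly expressed miR-26a (0.10 ± 0.10) and the pigment-cell miR-204 (0.13 ± 0.13). The mesenchymal miR-199 stood at 0.19 ± 0.12, the endothelial miR-126a at 0.29 ± 0.14 and the erythroid miR-451 at -0.05 ± 0.21. No name passed among 14 of the miR-17-92 clusters, 12 neural, 8 of the miR-15/16 family, 5 of the miR-30 family, 4 mesenchymal, 3 liver and gut, and 3 of the miR-183 cluster. Pairs of names of the erythroid, endothelial, miR-26, miR-29 and miR-101 lists did not pass either, nor did miR-132 with miR-212, miR-148 with miR-152, miR-462 with miR-731 or the only pigment name. Upper-quartile scaling called 2 names each lower in the miR-30 and miR-15/16 families, the miR-183 cluster and the list of miR-148, and library size alone called 2, 1, 2 and 2 of them and 1 name of the miR-17-92 clusters. The other alternatives, among them the omission of an age, called at most 2 names in any of these lists, which was the whole of some. Without the 12-month group, the 2 names of the miR-29 list (median change 0.79) and miR-132 with miR-212 (0.85) were all called higher. The only pigment name, miR-204, was then also higher (0.43), and 1 name of the miR-30 family lower. Without the 3 libraries farthest from their pool, the 2 names of the miR-101 list were called higher. Under TMM the medians of these lists ran from -0.27 in the miR-183 cluster to 0.39 in the miR-29 family. The early-embryo miR-430 hairpins, 59 in all, were too low to be tested, and summed to 2.19 to 13.2 CPM in old and 0.972 to 4.31 CPM in young libraries.

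A large change did not always pass. MiR-738 averaged 823 ± 871 CPM in old and 267 ± 314 CPM in young libraries (change 1.62 ± 0.69, adjusted p = 0.117). The neuronal miR-124 had 9.56 to 666 CPM in old and 12.6 to 109 CPM in young libraries, a change of 1.32 ± 0.66 (adjusted p = 0.163). Its 666 CPM came from 42 months replicate 5 alone, and the other old libraries held 9.56 to 86.3 CPM, within the young range at the upper end. MiR-30a, at 0.365 to 14.2 CPM in old and 3.63 to 48.5 CPM in young libraries, changed by -1.22 ± 0.53 (adjusted p = 0.121). In each of these the SD within at least 1 pool was close to or above the mean of that pool.

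**Figure D4:**
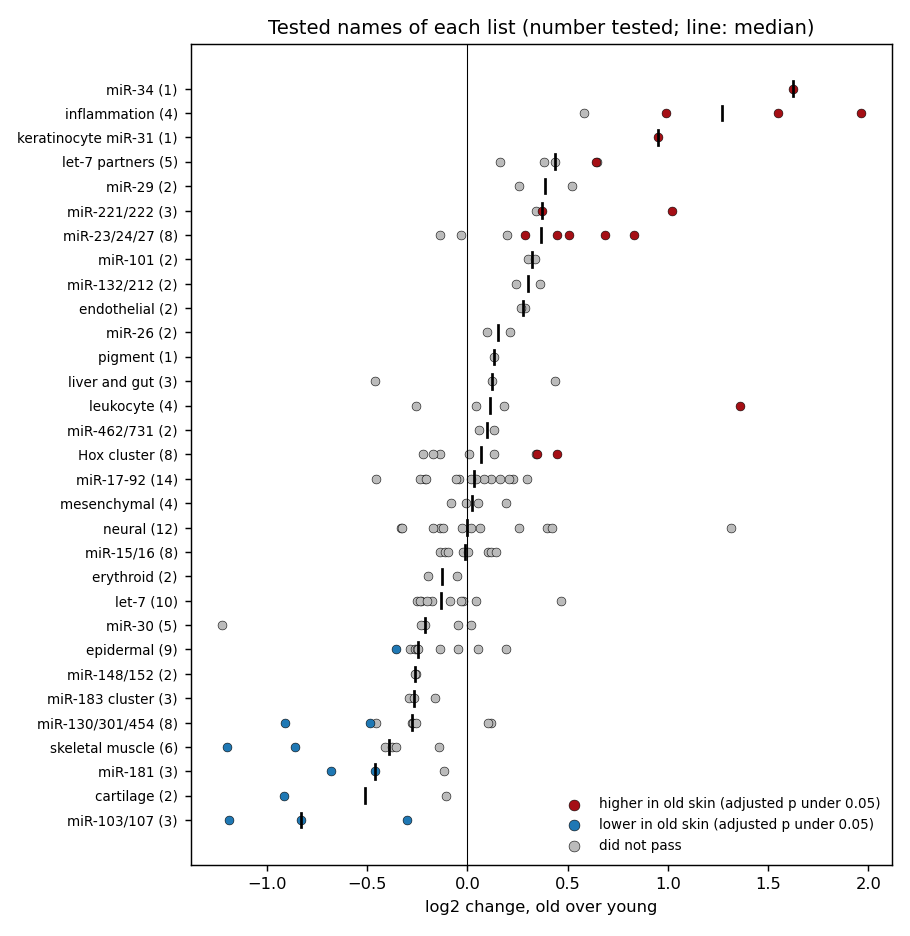
Log2 change of old over young skin (horizontal axis) for the tested names of 31 lists, with the number tested in brackets and the median as a line. Red points were higher and blue points lower at an adjusted p under 0.05, and the inflammation list (median 1.27) and the family of miR-103 and miR-107 (median -0.83) lie at opposite ends among lists of at least 3 names.

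The pooled differences were then set beside the 4 pairs of ages that make them up. All 33 called names had the pooled sign in 4 of 4 pairs, as had 86 of the 187 tested names, and for all 33 both old age means lay on the same side of both young age means, as for 90 of the 187. The pairs share libraries with each other and with the pooled test, and are values side by side. Over the 33 names the median size of the change was 0.83 at 36 against 6 months and 0.90 at 42 against 6 months. It was 0.57 at 36 against 12 months and 0.60 at 42 against 12 months. The smallest of the 4 changes was against 12 months in 25 of the 33 names, at 36 against 12 months in 12 and at 42 against 12 months in 13.

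For some names the change varied little over the pairs. MiR-146a changed by 1.64 at 36 and 1.53 at 42 against 6 months, and by 1.66 at 36 and 1.54 at 42 against 12 months. Without 42 months replicate 1, its changes at 42 months were 1.13 against 6 and 1.16 against 12 months. MiR-34a ranged from 1.61 to 1.76, but its 42-month values rested on that same library. Without it the changes at 42 months were 0.62 against 6 and 0.77 against 12 months, and those at 36 months were 1.504 and 1.65. Other names varied more, such as miR-31, which changed by 2.32 at 42 against 6 months and by 0.16 at 36 against 12 months. MiR-146b ranged from 0.94 to 2.74 and miR-223 from 0.39 to 2.18, with both higher values at 42 months. For miR-146b, 42 months replicate 1 held 9199 CPM and the other libraries of that age 591 to 1691 CPM. Those of 36 months held 631 to 1311 CPM, so its higher values at 42 months rested on that library. MiR-103 changed by -0.48 at 36 against 6 months and was close to 0 at 42 against 12 months.

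**Figure D5:**
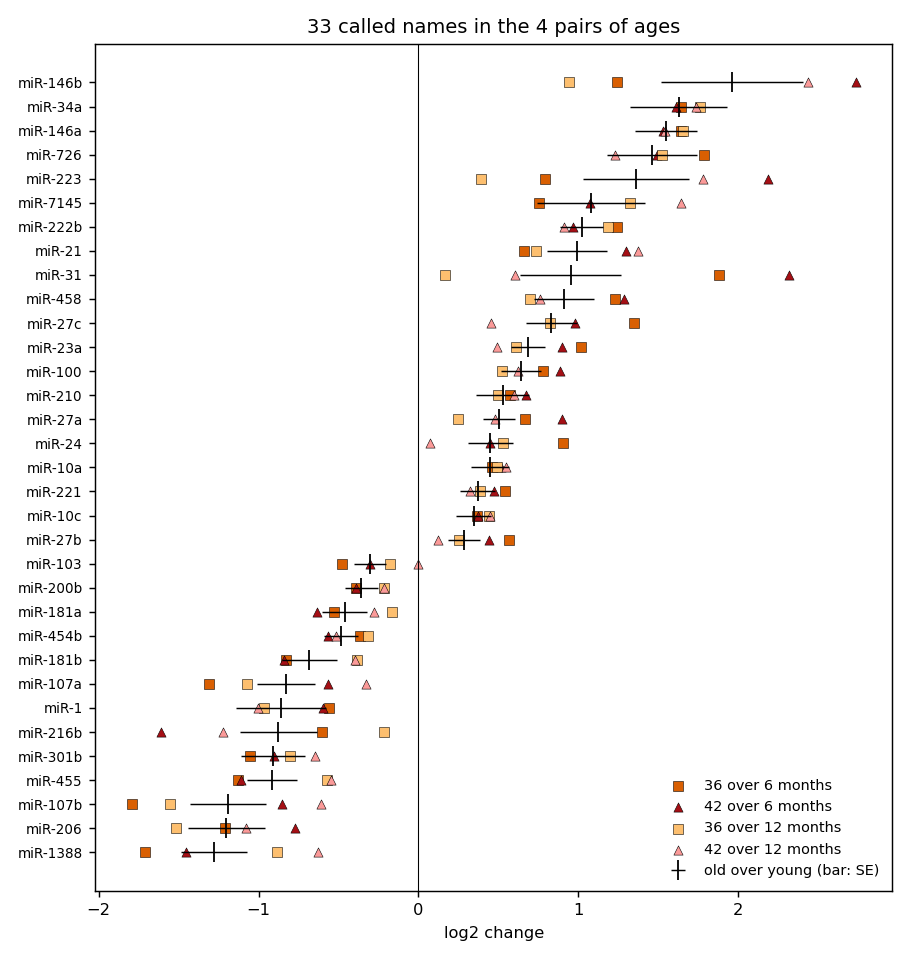
Log2 changes of the 33 called names in the 4 pairs of ages (squares for 36 months and triangles for 42 months, dark against 6 months and light against 12 months), with the pooled change of old over young as a black mark and its SE as a bar. The points of a name lie on 1 side of 0, with 1 point of miR-103 at about 0, and the smallest of the 4 changes is a light point in 25 names.

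Ages inside a pool were compared in a fit with the 4 ages as groups. Between 12 and 6 months, 2 of 189 names (1.06%) passed, and 34 had an unadjusted p under 0.05. Both were also called in the pooled comparison, miR-31 with a change of 1.72 ± 0.27 (adjusted p = 7.22e-04) and miR-27a with 0.42 ± 0.09 (adjusted p = 0.0223). Each was thus higher at 12 than at 6 months, the direction in which the old pool differed from the young pool. The count was 1 without 6 months replicate 1 or 2, 12 months replicate 2, 4 or 5 or 36 months replicate 2, and it was 7, 10, 8 and 11 without 12 months replicate 1 and 42 months replicates 1, 3 and 5. Between 42 and 36 months, 17 of 189 names (8.99%) passed, 9 higher and 8 lower, with 54 at an unadjusted p under 0.05. Without 36 months replicate 4 or 42 months replicate 1 none passed by edgeR, with 44 and 48 names at an unadjusted p under 0.05. Without 42 months replicate 2 the count was 3, without 36 months replicate 1 it was 7 and without 42 months replicate 4 it was 27.

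Of the 17 names, 5 were also called in the pooled comparison. In the 42-month libraries, set against those of 36 months, miR-107a and miR-107b were higher by 0.74 ± 0.19 and 0.94 ± 0.27 (adjusted p = 0.0282 and 0.0369), while both were lower in old than in young skin. MiR-107b had 43.2 to 86.2 CPM at 42 months and 16.3 to 44.3 CPM at 36 months. MiR-24 was lower at 42 than at 36 months, by -0.46 ± 0.14 (adjusted p = 0.0415), against a pooled change of 0.45. For miR-223 (1.39 ± 0.36) and miR-216b (-1.01 ± 0.27) the change between the old ages had the sign of the pooled change.

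The count of calls differed with the young age that was kept. Without the 6-month libraries every remaining library carried a transgene, the young pool was the 12-month group alone, and 12 names passed, all among the 33. They were miR-146a, miR-222b, miR-23a, miR-34a, miR-21, miR-726 and miR-7145, which were higher, and miR-1388, miR-455, miR-107b, miR-206 and miR-454b, which were lower. Without the 12-month libraries 46 names passed, 30 of them among the 33. With age as a random block in limma-voom (correlation 0.185), 17 names passed, all among the 33. Across 17 other settings and the omission of each of the 20 libraries in turn, 11 of the 33 names stayed called wherever they were tested, 6 higher (miR-146a, miR-222b, miR-23a, miR-21, miR-34a and miR-726) and 5 lower (miR-1388, miR-455, miR-206, miR-107b and miR-454b). The sign of the change was the same for all 33 in each of these.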

How the data were processed

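Raw counts of reads on each microRNA hairpin, not normalized, were deposited by the authors. The values were whole numbers with unequal library totals, which was checked. Libraries were made from total RNA with the TruSeq small RNA kit, per the labels' protocols. Per the submitters' processing notes, the tools were BWA 0.7.12-r1039, SAMtools 1.3.1-9, Trimmomatic 0.36 and CASAVA 1.8.4, with no role or order given. Not given in the sources used here were how reads were counted, on which hairpin set and genome build, and no coordinates are printed. A read counted at several copies would enter summed levels and library totals more than once.

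The analysis used edgeR 4.0.16 under R 4.3.3 (TMM scaling, filterByExpr by pool with a minimum count of 10, quasi-likelihood F test, Benjamini-Hochberg adjustment over all features tested, threshold 0.05). The fit of old over young held 20 libraries and no covariate. The SE of a change is its size divided by the square root of F. The test was checked on simulated counts. CPM used the TMM-scaled library total. Library measures were compared by two-sided permutation tests with 100000 resamples, adjusted over 4 measures. Replicates were numbered in record order, which has no meaning. The lowest chi-square per degree of freedom between any of 40 pairs of libraries of an age was 109.1. No library was thus a copy of another of its age, and pairs across ages were not compared. Neighbours came from the RefSeq annotation, matched by name.

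The comparison, its members, the lists and the naming rule were chosen with earlier results of these data known. Named were the 12 called names of smallest p and the 6 of largest change per direction, called names without overlap, the 8 most abundant names and the most abundant member of each list. MiR-10a, miR-10c, miR-221, miR-210, miR-24, miR-1, miR-738, miR-124 and other uncalled names were chosen after their values were seen, as were the omissions of 3 libraries at a time and those of single libraries from the age pairs. Alternatives included other scalings and filters, DESeq2 1.42.0, limma-voom 3.58.1 (also with age as a random block), robust estimation, other designs and the omission of ages or single libraries.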

Additional observations from a re-analysis of the deposited data

Results flagged for a closer look

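Levels of 58 names were examined for a single library far from the other 9 of its pool, 116 groups in all, and 15 stood out, 10 in the old and 5 in the young pool. The limit used picks about 1 group in 20 when the values of a group are normally distributed. CPM of a pool that mixes ages need not be so distributed, so 15 of 116 is not compared with that rate.

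In the old pool, 42 months replicate 2, the library of fewest reads, was high for 5 names. It held 8299.1 CPM of miR-100 (next highest old library 5695.5), 885.02 CPM of miR-140 (648.33), 8268.5 CPM of miR-182 (5249.6), 181980 CPM of miR-205 (61959) and 52864 CPM of miR-92a (37458). The next library, 42 months replicate 1, was high for 4 names linked to inflammation, myeloid cells or p53. It held 9199.2 CPM of miR-146b (1690.9), 248790 CPM of miR-21 (161510), 601.42 CPM of miR-223 (272.86) and 146.3 CPM of miR-34a (73.064). In 42 months replicate 5, miR-455 was low at 180.58 CPM, against 309.82 CPM in the next lowest old library. All 10 of these values came from 42-month libraries, and what sets them apart was not tested. Without each of these libraries in turn, miR-21, miR-34a, miR-100, miR-146b, miR-223 and miR-455 kept their calls.

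In the young pool, 12 months replicate 1 was high for miR-128 at 1979.7 CPM (next highest 1544.4) and miR-30d at 11509 CPM (7209.8). In 12 months replicate 4, miR-1 stood at 351.73 CPM (199.28) and miR-458 at 1858.5 CPM (1259.9). In 6 months replicate 1, miR-216b stood at 103.92 CPM (58.283). Without 12 months replicate 4 the change of miR-1 was -0.67 and missed the threshold (adjusted p = 0.0851), while miR-458 kept its call.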

How the results depend on the processing

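All 33 called names kept their sign in 17 settings and without each of 20 libraries in turn, and 24 kept their call without each library. The count of names (33) ran from 26 to 41 without each library, and that of hairpins (58) from 41 to 56. By names, upper-quartile scaling gave 52, library size alone 51, limma-voom with age as a random block 17 and the fit without the 6-month group 12. By hairpins the last 2 gave 21 and 23. Names of the same sign in 4 of 4 age pairs were 52 of 52 under upper-quartile scaling and 50 of 51 under library size alone. For 12 against 6 months, DESeq2 gave 10 names, only the compared ages in the fit 9, and single-library omissions 1 to 11. For 42 against 36 months these were 28, 1 and 0 to 27. The causes were not tested, except that fits on fewer ages hold fewer libraries. No other alternative moved a count by more than 1.5 times, and none of the library measures changed side of the threshold. No paired analysis was possible because replicate numbers were given in record order and the labels carry none. Depth limits miR-726 and miR-7145, with at most 242 reads in a pool, and counting error alone does not cover differences between fish.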

Other observations

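The 24-month libraries, with the strain label of the 6-month ones, entered neither pool. They were scaled together with the other 20 libraries, and levels were averaged as log2 of CPM plus 1. The 24-month mean then lay between the young and old means for 25 of the 33 called names. It was nearer to the young mean in 10 and nearer to the old mean in 15. On CPM means some names are nearer to the other pool, such as miR-107a (632 CPM, against 471 in old and 836 in young libraries). For 4 names, miR-181b, miR-181a, miR-210 and miR-10c, the 24-month mean lay beyond the old mean. For miR-10c the means were close, 35106 ± 5071 CPM at 24 months and 34896 CPM in old libraries. MiR-210 averaged 704 ± 109 CPM at 24 months (n = 5), against 596 CPM in old and 413 CPM in young libraries. For 4 others, miR-222b, miR-206, miR-216b and miR-1, it lay on the far side of the young mean. MiR-222b averaged 198 ± 25.7 CPM at 24 months, against 517 CPM in old and 255 CPM in young libraries, and miR-206 averaged 287 ± 60.1 CPM, against 113 CPM in old and 260 CPM in young libraries.

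Libraries of 1 age varied most at 42 months. The median within-age SD of log2 CPM over 187 names was 0.27 at 36 and 0.41 at 42 months, against 0.25 at 6 and 0.34 at 12 months. The mean within-age SD was larger in the old pool for 122 of 187 names, and the SD at 42 months was larger than at each other age for 102. The 3 libraries of fewest reads were all of 42 months, with 683884 to 1578189 reads. The part of depth in the SD was not tested, and no test was run on these values.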
